A study of Homo sapiens with 9 samples.

Results

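The DNA replication and S phase genes described here are 41 genes of origin licensing, the replication fork, nucleotide supply and the E2F family, taken by symbol from a table of 58676 genes. The RNA came from OVCA433, a cell line of ovarian serous adenocarcinoma. Control libraries came from cells with the shRNA control vector, and knockdown libraries from cells with shRNA #1 or shRNA #3 against MPZL3, called hairpin 1 and hairpin 3 below. Each of the 3 groups held 3 libraries, marked replicate A, B and C, which the study's methods call biological replicates. All groups share lentiviral transduction and, per those methods, puromycin selection of transduced cells. The control is described as an empty vector in one place and as scrambled in another, so whether it expresses a hairpin is uncertain.

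A cell copies its DNA once per cycle. Before S phase, the origin recognition complex, CDC6 and CDT1 load the MCM2 to MCM7 helicase onto origins, and at S phase entry CDC45 and the GINS complex turn it on. Polymerases, the sliding clamp PCNA with its RFC loader, and the nucleotide-making enzymes then carry the fork. Many of these genes are transcribed in late G1 under E2F factors, which the RB protein holds back until cyclin-dependent kinases, cyclin E-CDK2 among them, release them. E2F1 and E2F2 are known as activators, and E2F7 and E2F8 as repressors of the same targets.

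Because the members share this control, their promoters were examined first. A RefSeq window of 250 bases before to 50 bases after the start was at hand for 33 of the 41 genes on GRCh38.p14. The 4 words TTTCCCGC, TTTCGCGC, TTTGCCGC and TTTGGCGC, forms of the E2F site, were searched on both strands, where matches can overlap. At least 1 word was present in 18 of 33 member promoters (54.5%), against 3.33% of all 27305 promoters and 5.21% of those of tested genes. Windows of 5 members are shown, 5′ to 3′ on the strand of the gene, with the words in capitals. PCNA, LIG1 and E2F1 were lower under hairpin 1, E2F2 was among the members with a large difference between replicates, and MCM6 held the most words, 4, of which its stretch shows an overlapping pair. These stretches lie at chr20:5126644-5126711 (PCNA, minus strand), chr19:48170421-48170488 (LIG1, minus), chr20:33686386-33686448 (E2F1, minus), chr1:23531238-23531305 (E2F2, minus) and chr2:135876492-135876589 (MCM6, minus).
PCNA: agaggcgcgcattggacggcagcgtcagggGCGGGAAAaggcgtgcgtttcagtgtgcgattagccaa
LIG1: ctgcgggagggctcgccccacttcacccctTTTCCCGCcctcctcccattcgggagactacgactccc
E2F1: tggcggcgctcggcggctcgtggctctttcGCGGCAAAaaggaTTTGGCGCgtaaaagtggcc
E2F2: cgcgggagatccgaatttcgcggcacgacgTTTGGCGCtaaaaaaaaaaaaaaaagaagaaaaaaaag
MCM6: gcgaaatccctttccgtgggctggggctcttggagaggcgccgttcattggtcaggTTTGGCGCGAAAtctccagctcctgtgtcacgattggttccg

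The word split the members little. The 18 genes with a word had a median log2 difference of -0.22 between knockdown and control and of 0.34 between replicate A and the other replicates. The 15 genes without one had -0.12 and 0.28. CCNE1, the member with the largest fall, had none of the words in its window. A match is a string of letters, not a bound site.

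Library totals ranged from 16850854 to 23890191 counts, and all 41 members were among the 15975 genes tested. MPZL3 itself had 15.6, 21.9 and 21 CPM (counts scaled by library size) in control, 1.87, 1.98 and 1.8 under hairpin 1 and 1.94, 0.986 and 1.79 under hairpin 3, far lower in all 6 knockdown libraries. The cells carried KRT7, KRT8, KRT18 and PAX8, while the ovarian marker WT1 had no count and MUC16 averaged 3.18 CPM in control and 0 with both hairpins. EPCAM was at 402 CPM in control, 5.47 under hairpin 1 and 8.92 under hairpin 3. KRT7, KRT8 and KRT18 also had lower means with both hairpins. PAX8 and MSLN went the other way. PAX8 averaged 96.9 CPM in control, 200 under hairpin 1 and 207 under hairpin 3, and MSLN 68.3, 85.8 and 149. Over the 8 identity markers, the summed level was 10000 to 12100 CPM in control and 5270 to 6760 with the hairpins. Among leukocyte markers, LYZ was at 0 and the summed level stayed at or under 1.31 CPM. For 5 endothelial markers, the sum was 0.646 to 1.06 CPM in control and 4.2 to 7.54 with the hairpins, and for 5 fibroblast markers 1.94 to 2.53 and 13 to 23.6, with DCN at 0. What part these shifts have in the results below was not tested.

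Per length, PCNA was the most abundant member in control, at 257 ± 23 RPKM (reads per length and library size, SD, n = 3), followed by TK1, thymidine kinase, at 180 ± 11.3. Next came the flap nuclease FEN1 at 65.5 ± 5.36, MCM7 at 63.4 ± 5.16 and E2F1 at 56.2 ± 5.23, and the ranges of neighbours among these 3 overlap. The lowest were GINS3 at 2.12 ± 0.184 RPKM and POLE2 at 2.91 ± 0.514. All CPM values are TMM-scaled and are compared only within a gene.

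**Figure D1:**
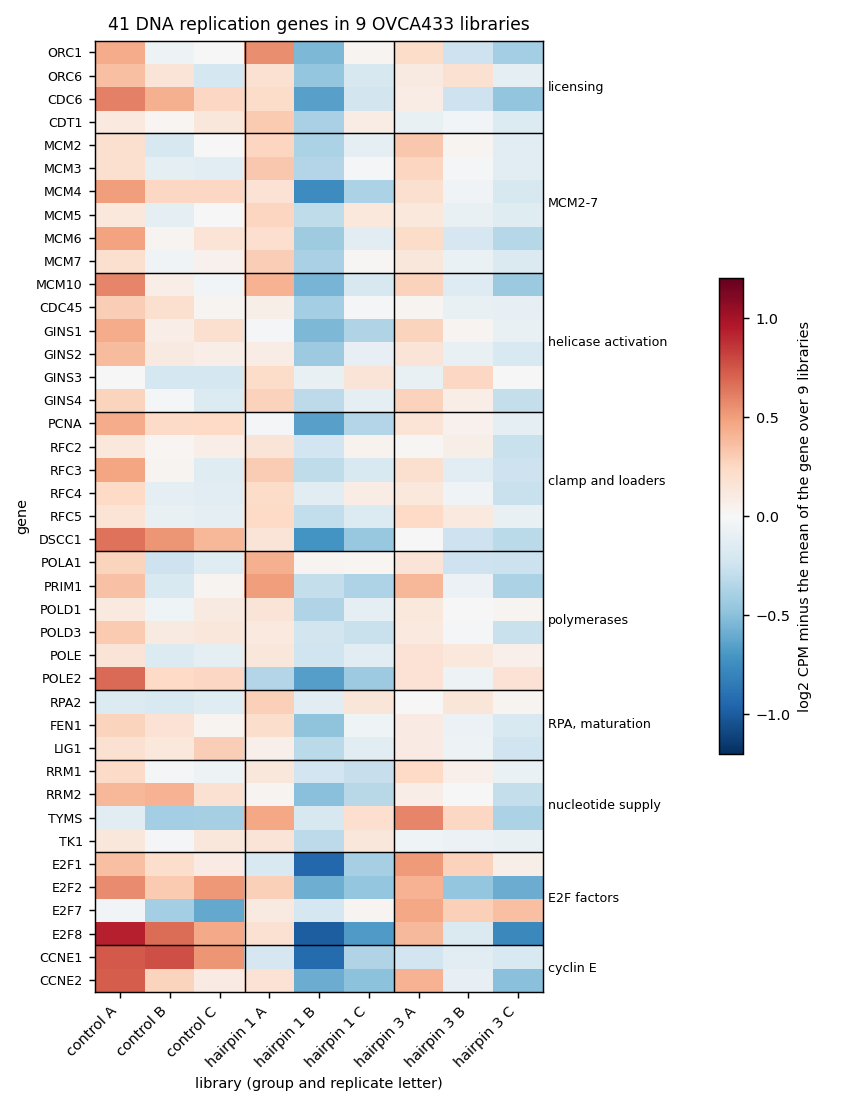
Each cell is the log2 CPM of 1 gene in 1 library minus the mean of that gene over the 9 libraries, with genes in rows grouped by role and libraries in columns. Replicate A is redder than B and C in each group, hairpin 1 B is the bluest column, and CCNE1 is red in all 3 control libraries and blue in all 6 knockdown libraries.

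Both hairpins were taken as 1 arm of 6 libraries against 3 control libraries. A minority of the replication genes was called, a smaller share than of all genes. In all, 8 of 41 members (19.5%) passed an adjusted p of 0.05 in edgeR's quasi-likelihood test, against 33% of all tested genes. The fallers were CCNE1, E2F8, DSCC1, CDC6, RRM2, PCNA and LIG1, and E2F7 alone rose. Lower calls thus numbered 7 of 41, about the same share as the 17% of all tested genes called lower. The median log2 fold change of the members was -0.16, with 30 below 0 and 11 above, beside 0.00 for all tested genes. At a fold change of at least 2 as well, none of the 41 was called, against 14.7% of all tested genes. These counts leave the replicate letter out of the model. With the letter as a block, 14 members were called lower and 2 higher, a share slightly above the 36.1% of all tested genes. A member without a call is not shown to be unchanged. In bulk RNA, fewer cells in S phase and less RNA of these genes per cell cannot be told apart.

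In 9 members no knockdown value reached the lowest of control (CDC6, MCM4, PCNA, DSCC1, POLE2, LIG1, RRM2, E2F8 and CCNE1), a pattern found in 17.6% of all tested genes. RPA2, a subunit of the single-strand binding protein, was the only member with all 6 above, a pattern found in 2476 of the 15975 tested genes. Its values were 30.6, 30.3 and 31 CPM in control, 41.9, 31.4 and 37.9 under hairpin 1 and 34.5, 37.9 and 35.1 under hairpin 3, and its difference of 0.25 on the log2 scale (SE 0.0994) had an edgeR adjusted p of 0.0748.

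Cyclin E1 showed the largest difference. CCNE1 (ENSG00000105173, chromosome 19, 29811898 to 29824308) encodes the partner of CDK2 at S phase entry. It stood at 33.7, 34.6 and 29.2 CPM in control replicates A, B and C, at 17.6, 10.7 and 15.8 under hairpin 1 and at 17.3, 18.6 and 17.9 under hairpin 3. No knockdown library reached the lowest control library. The log2 fold change was -0.99 (SE 0.151, edgeR adjusted p 3.18e-04), or -1.14 (SE 0.156, adjusted p 6.29e-05) for hairpin 1 and -0.86 (SE 0.155, adjusted p 7.08e-04) for hairpin 3. The call held in every alternative except the fold threshold, with log2 fold changes of -1.07 to -0.89. Its paralog CCNE2 went from 17.3, 12.6 and 11.2 CPM to 11.8, 6.91 and 7.45 and to 14, 9.76 and 7.4, with overlapping groups and a log2 fold change of -0.52 that did not pass (SE 0.234, adjusted p 0.111). Exons of CCNE2 share 1629 of 4397 bases with INTS8 on the other strand, and the reads carry no strand, so its counts are uncertain.

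**Figure D2:**
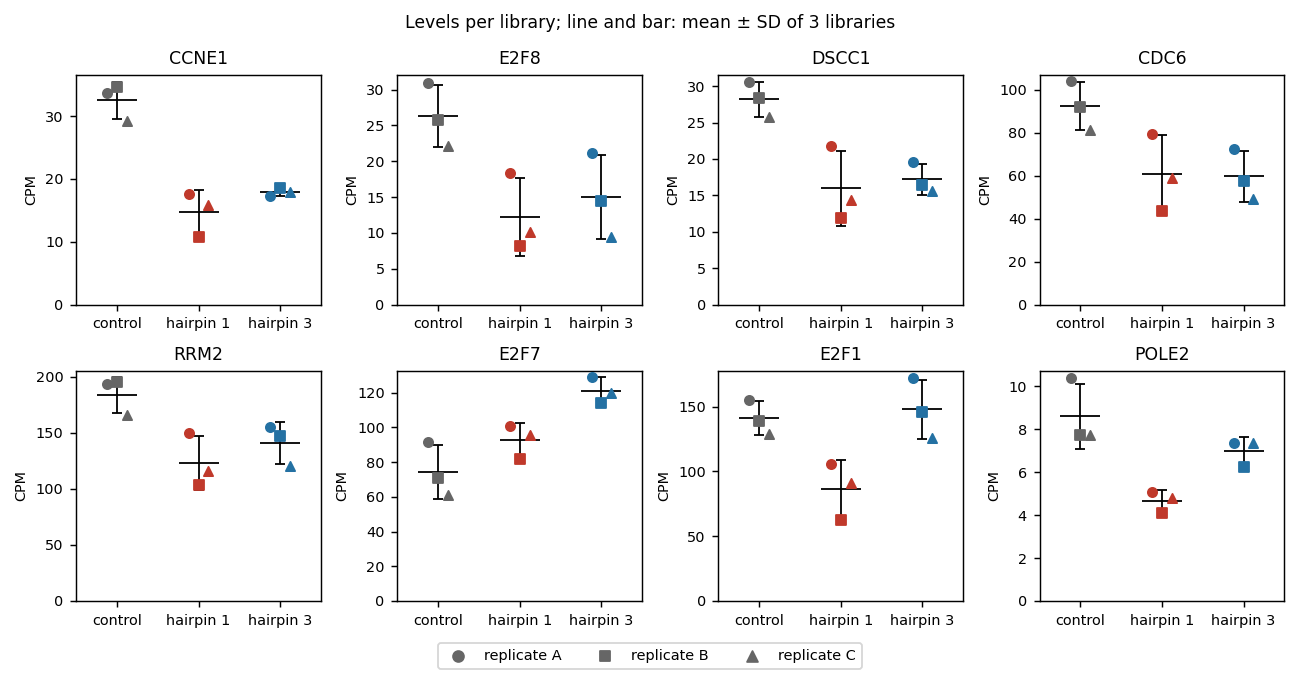
TMM-scaled CPM of 8 members in each library, with symbols for replicates A, B and C, and the mean ± SD of 3 libraries per group. CCNE1 and DSCC1 separate control from both hairpins, E2F7 rises to 114 to 129 CPM under hairpin 3, E2F1 is low under hairpin 1 and overlaps control under hairpin 3, and POLE2 is lowest under hairpin 1.

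Among the E2F genes, the members moved apart. E2F8 (ENSG00000129173, chromosome 11, 19224063 to 19241620), an atypical repressor, was at 30.9, 25.8 and 22.2 CPM in control, 18.4, 8.18 and 10.1 under hairpin 1 and 21.2, 14.4 and 9.47 under hairpin 3, so that the highest knockdown value lay just under the lowest control value. Its log2 fold change was -0.95 (SE 0.269, edgeR adjusted p 0.0174), and the call was lost without control replicate A or control replicate B. E2F7 (ENSG00000165891, chromosome 12, 77021247 to 77065580), its close relative, rose. It had 91.7, 70.7 and 61.2 CPM in control, 101, 81.6 and 95.7 under hairpin 1 and 129, 114 and 120 under hairpin 3. Control and hairpin 1 overlapped, control and hairpin 3 did not, and the log2 fold change was 0.52 (SE 0.16, adjusted p 0.0259), lost without control replicate B or C. E2F2, an activator, ran at 18.6, 15.6 and 18 CPM in control, 15.3, 8.38 and 9.12 under hairpin 1 and 16.8, 9.1 and 8.32 under hairpin 3. Its log2 fold change of -0.64 (SE 0.233, adjusted p 0.0523) did not pass.

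E2F1, the best known activator, was at 155, 139 and 129 CPM in control, 106, 62.5 and 91.2 under hairpin 1 and 172, 146 and 126 under hairpin 3. Hairpin 1 lay below the other groups, and hairpin 3 overlapped control. The log2 fold change was -0.70 under hairpin 1 (SE 0.169, edgeR adjusted p 0.00492) and 0.07 under hairpin 3 (SE 0.167, adjusted p 0.789).

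Of the 4 licensing genes, only CDC6, which brings the MCM helicase to the origin recognition complex, passed the test. CDC6 (ENSG00000094804, chromosome 17, 40287633 to 40304657) was at 104, 91.8 and 81.4 CPM in control, 79.6, 43.5 and 58.7 under hairpin 1 and 72.6, 57.4 and 49.2 under hairpin 3. All knockdown values lay below control, narrowly so for hairpin 1 A. The log2 fold change was -0.62 (SE 0.17, edgeR adjusted p 0.0149), at -0.61 and -0.63 with the hairpins taken singly, and the call was lost without control replicate A. CDT1, the other loader and the most abundant of the group per length, ran at 73.9, 69.2 and 74.7 CPM in control, 84.3, 51.8 and 72.1 under hairpin 1 and 63.9, 66.2 and 60.6 under hairpin 3. Its groups overlapped, with a log2 fold change of -0.13 (adjusted p 0.498). ORC1 had 58.8, 41.2 and 43.2 CPM in control, 63.6, 29.6 and 44 under hairpin 1 and 50.3, 36.3 and 32.4 under hairpin 3, so that each replicate A exceeded all B and C values, whatever the vector. Its log2 fold change was -0.16 (adjusted p 0.623), and that of ORC6 was -0.15 (adjusted p 0.509).

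The helicase itself showed no call in the pooled comparison. Log2 fold changes of MCM2 to MCM7 lay between -0.47 and 0.04, with a median of -0.04. Within letters, MCM4 and MCM6 were below control in all 6 pairings of a knockdown and a control library. The smallest MCM4 difference was -0.30, and those of MCM6 were -0.23 to -0.50. Members outside the ring shared this pattern, MCM10, CDC45, GINS2 and FEN1 among them. MCM4 was at 389, 326 and 327 CPM in control, 309, 163 and 211 under hairpin 1 and 314, 266 and 240 under hairpin 3, every knockdown value below every control value. At -0.47 on the log2 scale (SE 0.178, edgeR adjusted p 0.0612), it missed the threshold, while -0.61 under hairpin 1 alone passed it (SE 0.188, adjusted p 0.0207). MCM6 went from 180, 132 and 145 CPM to 148, 96.3 and 118 and to 150, 112 and 102, with a log2 fold change of -0.33 (adjusted p 0.132). MCM2 (248, 190 and 216 CPM in control, 259, 167 and 201 under hairpin 1, 272, 222 and 199 under hairpin 3) and MCM3 (208, 169 and 167, then 229, 143 and 179, then 218, 179 and 167) overlapped between all groups. MCM7, the most abundant of the ring per length, had 302, 257 and 275 CPM in control, 325, 203 and 268 under hairpin 1 and 291, 250 and 235 under hairpin 3, again with overlap and a log2 fold change of -0.09.

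Genes that turn the helicase on did not pass in the pooled comparison either, with a median of -0.26 for the 6 genes. GINS1, a GINS subunit, was at 104, 81.1 and 87.5 CPM in control, 75.4, 52.8 and 59.5 under hairpin 1 and 92.2, 78.4 and 72 under hairpin 3. Hairpin 1 lay under control and hairpin 3 overlapped it, and the log2 fold change of hairpin 1 was -0.53 (SE 0.143, edgeR adjusted p 0.00938). GINS2 had 47.8, 39.6 and 38.9 CPM in control, 39.1, 27.1 and 34.4 under hairpin 1 and 41, 34.5 and 32.4 under hairpin 3, and GINS4 38.7, 31.6 and 28.6, then 38.8, 25.8 and 29.8, then 38.8, 33.8 and 26.3. MCM10, which acts with CDC45 and MCM2 to MCM7 at the fork, had 58.7, 41.4 and 38.3 CPM in control, 52.3, 26.6 and 34.2 under hairpin 1 and 47.4, 35.1 and 28.7 under hairpin 3. In these 3 genes the groups overlapped and replicate A was the highest of each group. CDC45 had a log2 fold change of -0.25 (adjusted p 0.106) and GINS3 of 0.22 (adjusted p 0.21).

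At the clamp, PCNA and DSCC1 fell. DSCC1, a subunit of the alternative clamp loader that serves sister chromatid cohesion, was at 30.6, 28.3 and 25.8 CPM in control, 21.8, 11.9 and 14.3 under hairpin 1 and 19.6, 16.4 and 15.6 under hairpin 3. Both hairpins lay under control and overlapped each other, and the log2 fold change was -0.77 (SE 0.164, edgeR adjusted p 0.00353), a call that held in every alternative but the fold threshold. PCNA (ENSG00000132646, chromosome 20, 5114953 to 5126626), the sliding clamp, was at 416, 357 and 359 CPM in control, 302, 194 and 239 under hairpin 1 and 342, 316 and 283 under hairpin 3. Its log2 fold change of -0.43 (SE 0.155, adjusted p 0.0497) sat at the threshold and was lost in 10 of 18 alternatives, among them those without any control library, hairpin 1 C or hairpin 3 C. Of the RFC loader subunits none passed: RFC5 had 63.7, 53.5 and 52.4 CPM in control, 67.2, 46.4 and 50.6 under hairpin 1 and 67.1, 61.5 and 53.3 under hairpin 3, and RFC3 76.6, 56.6 and 50.1, then 68.2, 44.9 and 48.8, then 63.4, 50.8 and 46.6. Both overlapped between groups. RFC2 and RFC4 had log2 fold changes of -0.11 and 0.00.

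No polymerase gene passed in the pooled comparison, and the median of the 6 was -0.07. POLE2, the second subunit of the leading-strand polymerase, was at 10.4, 7.71 and 7.73 CPM in control, 5.09, 4.12 and 4.8 under hairpin 1 and 7.35, 6.25 and 7.36 under hairpin 3. Hairpin 1 lay under hairpin 3, and both under control. Pooled, the difference was -0.56 on the log2 scale (SE 0.204, edgeR adjusted p 0.0528), and that of hairpin 1 was -0.88 (SE 0.173, adjusted p 0.00123). POLA1, the polymerase subunit that extends primers, had 42.9, 30 and 32.3 CPM in control, 47.8, 36.5 and 36.2 under hairpin 1 and 39.6, 29.9 and 29.7 under hairpin 3, and the primase PRIM1 9.29, 6.41 and 7.45, then 10.3, 6 and 5.65, then 9.64, 6.96 and 5.61. POLD1 had 119, 106 and 118 CPM in control, 122, 85.6 and 101 under hairpin 1 and 120, 110 and 112 under hairpin 3. In all 3 the groups overlapped, and the log2 fold changes were 0.06, -0.07 and -0.08. POLE and POLD3 had 0.06 (adjusted p 0.708) and -0.27 (adjusted p 0.0908).

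In fragment maturation and nucleotide supply, LIG1 and RRM2 fell. RRM2 (ENSG00000171848, chromosome 2, 10122328 to 10131419), the small subunit of ribonucleotide reductase, was at 193, 195 and 166 CPM in control, 150, 103 and 116 under hairpin 1 and 155, 147 and 120 under hairpin 3. Control lay above both hairpins, which overlapped each other, and the log2 fold change was -0.48 (SE 0.133, edgeR adjusted p 0.0149), lost without control replicate A or B. The large subunit RRM1 had 193, 162 and 157 CPM in control, 181, 140 and 136 under hairpin 1 and 194, 171 and 155 under hairpin 3, with overlap and a log2 fold change of -0.07 (adjusted p 0.717). LIG1, the ligase that seals Okazaki fragments, was at 92.2, 88.5 and 99.5 CPM in control, 85, 64.8 and 73.8 under hairpin 1 and 87.3, 77.9 and 69.1 under hairpin 3. Its log2 fold change of -0.29 (SE 0.104, adjusted p 0.0494) was lost in 12 of 18 alternatives, among them those without any single library other than hairpin 1 A and hairpin 3 A. FEN1 had 175, 164 and 148 CPM in control, 168, 104 and 140 under hairpin 1 and 155, 138 and 128 under hairpin 3, and TK1 348, 311 and 346, then 351, 254 and 346, then 304, 301 and 296. Both were without a call, at -0.22 and -0.12. TYMS, thymidylate synthase, had the opposite sign at 0.50 (SE 0.199, adjusted p 0.0767) and shares 967 of its 2470 exon bases with ENOSF1 on the other strand, so its counts are uncertain.

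Leaving out 1 library moved the pooled count of 8 to 3 without control replicate A or control replicate B, to 5 without control replicate C and to 13 without hairpin 3 replicate A. Of all tested genes, 26.9%, 22.9%, 24.6% and 32.3% were called without control A, control B, control C and hairpin 3 A. The Wald test of DESeq2 called 12 members, against 35.6% of all tested genes. In each of these settings the share of members was below that of all genes, only slightly so without hairpin 3 A. Without a filter on low counts, 8 members were called lower and 1 higher. That share was above the 16.5% of all genes then tested.

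Each hairpin was then set against the same 3 control libraries. Hairpin 1 gave 11 lower members and no higher one (26.8% of 41, against 37.8% of all tested genes), with a median of -0.18. They were CDC6, MCM4, GINS1, PCNA, DSCC1, POLE2, LIG1, RRM2, E2F1, E2F8 and CCNE1. Hairpin 3 gave 5 lower members, CDC6, DSCC1, RRM2, E2F8 and CCNE1, and the higher E2F7 (14.6%, against 34.7% of all tested genes), with a median of -0.17. E2F7 stood at 0.70 under hairpin 3 (SE 0.137, edgeR adjusted p 0.00131) and at 0.31 under hairpin 1 (SE 0.137, adjusted p 0.0887). Side by side, hairpin 3 and hairpin 1 gave these log2 fold changes in E2F8 (-0.82, adjusted p 0.0465, and -1.10, adjusted p 0.00983), RRM2 (-0.39, adjusted p 0.0471, and -0.58, adjusted p 0.0052) and DSCC1 (-0.72, adjusted p 0.00853, and -0.82, adjusted p 0.0033). Only CCNE1 and E2F8 had a fold change of at least 2 under hairpin 1, and none had it under hairpin 3. Of all tested genes, 16.3% and 15.3% were called at that threshold. Without hairpin 1 replicate A, the hairpin 1 count rose to 19 of 41, a larger share than the 36.4% of all tested genes called there. Leaving out hairpin 1 B ended the hairpin 1 calls of CDC6, MCM4, LIG1 and E2F8, and leaving out hairpin 1 C or control A ended those of CDC6, MCM4 and LIG1. CDC6 and LIG1 also lost theirs without control B, and LIG1 without control C or hairpin 3 B. The hairpin 3 count fell to 3 without control replicate A, control replicate B or hairpin 3 replicate B. Of all tested genes, 32%, 27.3% and 27.5% were called there. Each of these omissions ended the calls of CDC6, RRM2 and E2F8. Without hairpin 3 C those 3 calls were lost too, without hairpin 1 C those of RRM2 and E2F8, and without control C that of E2F8.

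**Figure D3:**
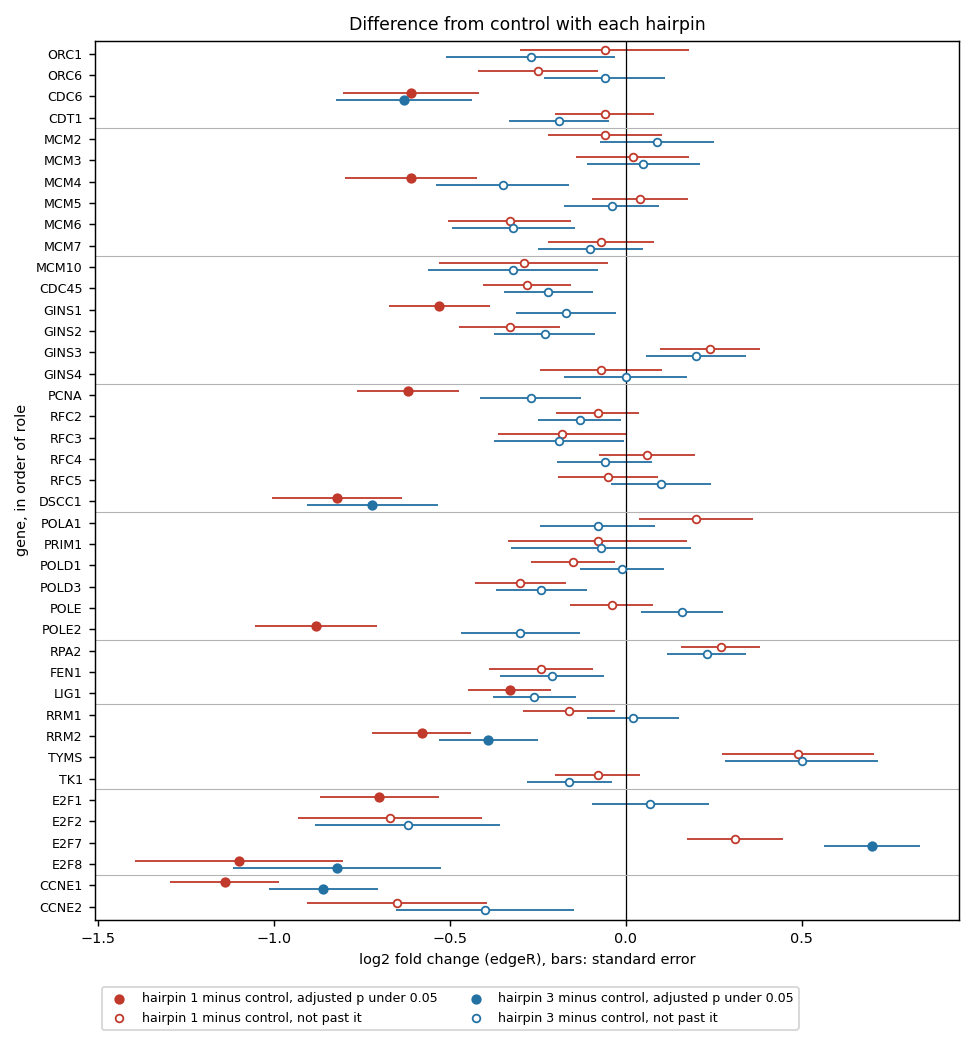
Log2 fold change of each member against control, with its standard error, for hairpin 1 (red) and hairpin 3 (blue), where filled points passed an adjusted p of 0.05. CDC6, DSCC1, RRM2, E2F8 and CCNE1 are filled and to the left of 0 with both hairpins, and E2F7 is filled to the right under hairpin 3.

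The hairpins themselves differed in 2 members, both higher under hairpin 3 (4.88%, against 11.6% of all tested genes). E2F1 differed by 0.77 on the log2 scale (SE 0.169, edgeR adjusted p 0.0095) and POLE2 by 0.58 (SE 0.175, adjusted p 0.0488). Within replicate letters A, B and C, hairpin 3 exceeded hairpin 1 in E2F1 by 0.70, 1.22 and 0.47 and in POLE2 by 0.52, 0.59 and 0.61. The POLE2 call was lost in 9 of 17 alternatives, without any one of control B, control C or the 6 knockdown libraries. The E2F1 call held without any single library, while the count of 2 went to 4 without hairpin 1 replicate A. It went to 1 without control B, control C, hairpin 1 B, hairpin 1 C or any hairpin 3 library. Of all tested genes, 12% were called without hairpin 1 A, and 6.39% to 10.9% in the settings that gave 1.

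Several of these genes lie where neighbouring genes shifted as well. For each gene the median log2 difference of up to 50 tested neighbours averaging 10 CPM or more was taken, 25 on each side. With hairpin 1, tested genes of chromosome 20 had a median of -0.32 and those of chromosome 8 of -0.38, beside medians of 0.01 over the rest of the genome. On chromosome 20 lie GINS1, PCNA and E2F1, whose neighbours had hairpin 1 medians of -0.38, -0.31 and -0.38 and medians between the hairpins of 0.33, 0.35 and 0.35. On chromosome 8 lie MCM4, GINS4, DSCC1 and CCNE2, under hairpin 1 neighbour medians of -0.29, -0.34, -0.34 and -0.41. E2F7, on chromosome 12, had neighbours at 0.30 under hairpin 3.

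With each library corrected for the shift of the neighbours, hairpin 1 had 7 called members, against 35.7% of all tested genes. GINS1 went from -0.53 to -0.15 (edgeR adjusted p 0.419), PCNA from -0.62 to -0.33 (adjusted p 0.0815), E2F1 from -0.70 to -0.32 (adjusted p 0.172) and MCM4 from -0.61 to -0.30 (adjusted p 0.19). The E2F1 difference between the hairpins went from 0.77 to 0.47 (adjusted p 0.133). On other chromosomes, some hairpin 1 calls held. CCNE1 stood at -1.03 (edgeR adjusted p 1.57e-04), E2F8 at -1.18, POLE2 at -0.96, RRM2 at -0.66 and CDC6 at -0.62. LIG1, on chromosome 19, went from -0.33 to -0.22 and lost its hairpin 1 call (edgeR adjusted p 0.271). Without a call before or after, POLD1 went from -0.15 to 0.18 and FEN1 from -0.24 to -0.03 under hairpin 1. DSCC1 kept its pooled call at -0.48 (adjusted p 0.0136), while LIG1 at -0.19, PCNA at -0.30 and E2F7 at 0.30 lost theirs and RPA2 gained one at 0.34 (adjusted p 0.00856). The pooled count was then 6, against 33.3% of all tested genes.

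**Figure D4:**
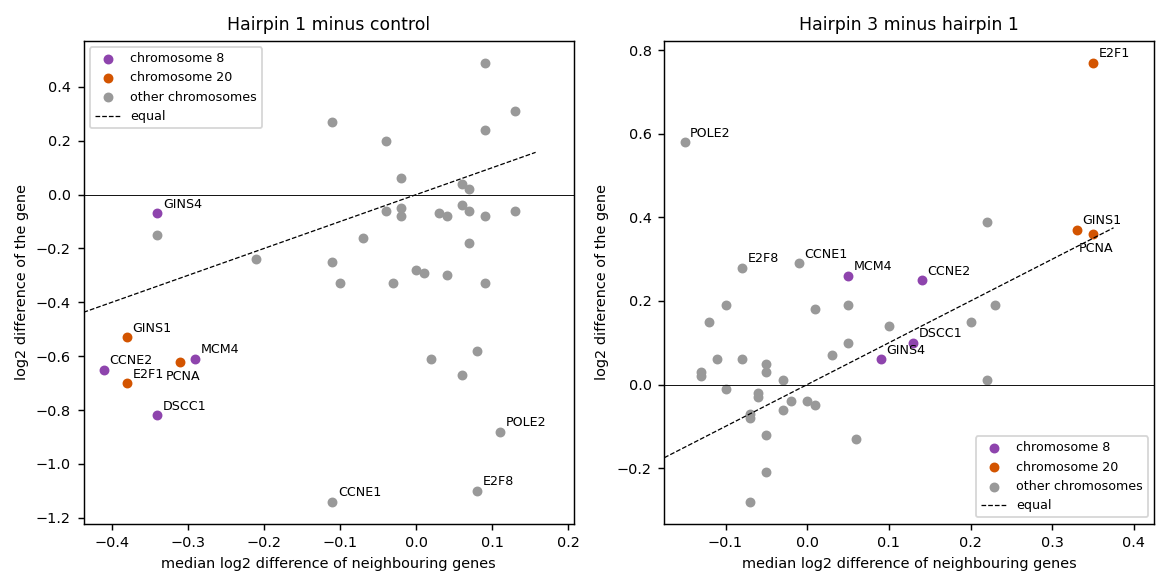
Log2 difference of each member (vertical axis) against the median log2 difference of its neighbouring genes (horizontal axis), for hairpin 1 minus control (left) and hairpin 3 minus hairpin 1 (right), with the dashed line marking equal values. Members on chromosomes 8 and 20 have neighbours at or below -0.29 on the left, while CCNE1, E2F8 and POLE2 lie far from the line with neighbours between -0.11 and 0.11.

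The replicate letters also separated these genes. The biological coefficient of variation, the spread between libraries left by the model, was 8.299% with group and letter. It was 18.17% in the pooled comparison, so the counts of calls are not directly comparable. With the group held in the model, 31 of 41 members were higher in replicate A than in B and C (75.6%, against 21% of all tested genes called in either direction and 10.5% called higher in A). No member was called lower, and all 41 log2 differences were above 0, from 0.07 to 0.72 with a median of 0.31, beside -0.02 for all tested genes. None reached a fold change of 2, a threshold at which 1.04% of all tested genes were called. Between replicates B and C no member was called (0 of 41 by edgeR and by the Wald test of DESeq2, 1 at an unadjusted p under 0.05). EdgeR called 0.0188% of all tested genes, and the median of the members was -0.04. That fit averages over the groups. The median log2 deviation of the members in B and C was 0.03 and 0.05 in control, -0.39 and -0.13 under hairpin 1 and -0.05 and -0.18 under hairpin 3. The labels do not say what the letters mark.

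All 6 MCM genes and all 4 E2F genes were among the 31. E2F8 differed most, by 0.72 (SE 0.131, edgeR adjusted p 0.00204), followed by CCNE2 at 0.65 (SE 0.107, adjusted p 0.00103), MCM10 at 0.64 (SE 0.0907, adjusted p 4.55e-04), E2F2 at 0.62, PRIM1 at 0.62 and ORC1 at 0.61 (SE 0.098, adjusted p 9.34e-04). The smallest adjusted p was that of RFC3, 4.41e-04, at 0.48 (SE 0.0683). The 10 members without a call were CDT1, CDC45, GINS3, RFC2, POLD1, POLE2, RPA2, LIG1, TK1 and CCNE1. CCNE1, the largest faller with knockdown, stood at 0.13 here (SE 0.119, adjusted p 0.469), and POLE2 at 0.25 (adjusted p 0.171).

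The difference was present in each group. Replicate A was the highest of its group in 36 members in control, 41 under hairpin 1 and 34 under hairpin 3, against 36.7%, 36.2% and 39.5% of all tested genes. It was the highest in each of the 3 groups in 32 of 41 members, against 16.1% of all tested genes. The median of A minus the mean of B and C was 0.27 in control, 0.46 under hairpin 1 and 0.27 under hairpin 3. The count of 31 fell to 15 without hairpin 1 A, to 22 without hairpin 3 A and to 20 without the hairpin 3 group. Of all tested genes, 10.3%, 10.8% and 8.66% were called there, against 21% with all libraries. The median of the members stayed at 0.26 to 0.35 whichever single library was left out.

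**Figure D5:**
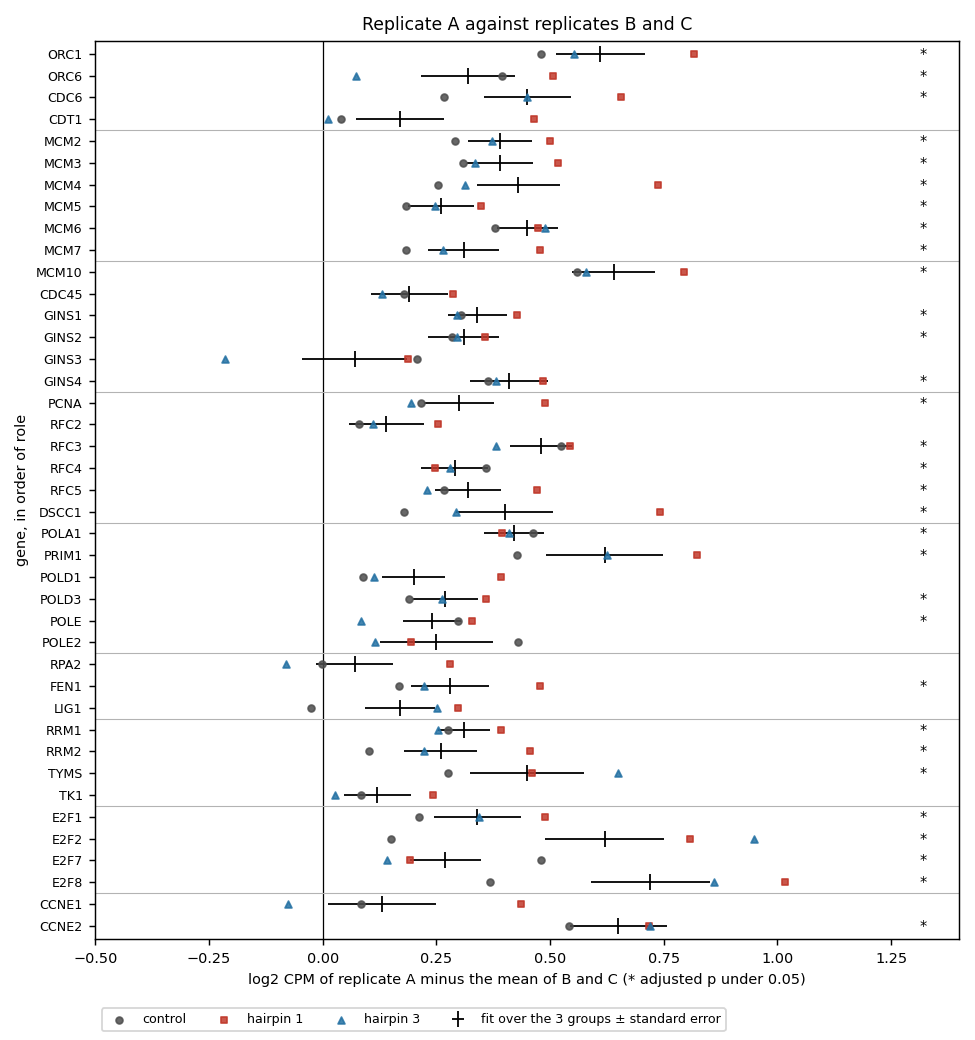
For each member, log2 CPM of replicate A minus the mean of B and C in control (grey), hairpin 1 (red) and hairpin 3 (blue), with the fit over the 3 groups and its standard error in black and an asterisk for an adjusted p under 0.05. Nearly all points lie to the right of 0, and GINS3, RPA2 and CCNE1 are among the few with a point to the left.

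The libraries differed as a block. The median log2 deviation of the members from their own mean was 0.29, 0.03 and 0.05 in control A, B and C, 0.18, -0.39 and -0.13 under hairpin 1 and 0.17, -0.05 and -0.18 under hairpin 3. Hairpin 1 B held the lowest of the 9 values in 30 of 41 members, against 13.5% of all tested genes, and its total of 19795216 counts was within the range of the others. Without it, 9 members were called in the pooled comparison, 9 for hairpin 1 and 31 between the letters. Of all tested genes, 31.6%, 33% and 23.8% were called without hairpin 1 B. The members took 0.278% of its counts and 0.467% of those of control A, the extremes of the series. With group means removed, each member was correlated over the 9 libraries with the median of the members, of which it is a part. The correlations ran from 0.53 (GINS3) to 1.00 (MCM3) with a median of 0.93, and CCNE1 was at 0.71.

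Set within letters, the median of hairpin 1 minus control was -0.09 in A, -0.42 in B and -0.10 in C, and that of hairpin 3 minus control was -0.17, -0.05 and -0.22. CCNE1 was lower in each pairing, by -0.94, -1.68 and -0.88 under hairpin 1 and -0.96, -0.89 and -0.70 under hairpin 3. E2F8 was lower too, by -0.74, -1.65 and -1.13 and by -0.54, -0.84 and -1.22. A comparison of replicates B and C alone was added after the difference between the letters was seen. It called 11 members in the pooled comparison, 19 under hairpin 1, 11 under hairpin 3 and 6 between the hairpins. Of all tested genes it called 26.7%, 40.8%, 37.3% and 16.8%. The share of members was thus about equal in the pooled comparison, above under hairpin 1 and below in the others.

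Other genes of replication and its control were taken from lists, 88 of whose 89 genes were tested. Of these, 17 were called with knockdown (19.3%, against 33% of all tested genes), 8 higher and 9 lower, with a median of -0.04. The share called was 41.7% in the E2F and RB list, 33.3% in S phase control and under that of all genes in the other lists. The largest changes were in S phase control. CDKN1C, an inhibitor of cyclin-dependent kinases, rose from 2.81, 4.18 and 2.53 CPM in control to 10, 11.8 and 7.71 under hairpin 1 and 15, 14.3 and 16.6 under hairpin 3 (log2 1.98, SE 0.27, edgeR adjusted p 1.32e-04). CDKN1A, encoding the inhibitor p21, fell from 493, 619 and 721 CPM to 218, 347 and 302 and to 314, 328 and 349 (log2 -0.98, SE 0.15, adjusted p 3.36e-04). In both genes control was apart from all knockdown libraries, and in CDKN1A the hairpins overlapped. SKP2, which marks CDK inhibitors for degradation, rose at 0.94 in the pooled comparison (adjusted p 0.046), with 313, 264 and 309 CPM for hairpin 1 and 160, 121 and 114 for hairpin 3, beside 128, 103 and 102 in control.

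In the E2F and RB list, 5 of 12 tested genes were called: E2F5 fell (log2 -0.78, edgeR adjusted p 0.00105, neighbours at -0.30), as did LIN54 (-0.66, adjusted p 0.00941), a DNA-binding subunit of the DREAM complex, and TFDP2, a partner of E2F factors, rose (0.38, adjusted p 0.00847). In nucleotide supply 3 of 13 were called: SHMT1 fell (-0.52, adjusted p 0.0293), SAMHD1 fell (-0.34, adjusted p 0.0468) and CAD, which starts pyrimidine synthesis, rose (0.41, adjusted p 0.0105). Licensing gave 2 of 16, RECQL4 (-0.43, with neighbours at -0.41) and DONSON (-0.33), both lower. The fork list gave 2 of 24, POLE3 (0.42) and SUPT16H (0.34), both higher, and chromatin assembly 1 of 11, the histone chaperone ASF1B at 0.59 (adjusted p 0.0031). In replicate A, 43 of the 88 were called higher, against 10.5% of all tested genes, and 3 lower, with a median of 0.22.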

How the data were processed

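RNA of 9 OVCA433 libraries was poly(A)-selected and sequenced without strand. Per the submitters' processing notes, HISAT2 2.0.5, featureCounts 1.5.0-p3 and hg38 were used. The authors deposited whole-number counts of reads for every gene, neither normalized nor filtered. Depth was 16850854 to 23890191 counts, and reads without molecular identifiers are not independent molecules. Coordinates are those of the count table, and 39 of 41 members had the same ones in GENCODE 29.

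Genes were filtered with filterByExpr (minimum count 10, minimum total 15) over the 3 groups, scaled by TMM and tested by the quasi-likelihood F test of edgeR 4.0.16 (R 4.3.3). P-values were adjusted over all 15975 tested genes after Benjamini and Hochberg, and genes were called at an adjusted p under 0.05. The pooled comparison set both hairpins against control, as the study did. Single hairpins came from a 3-group model, and letters from a model with group and letter. Standard errors are the absolute log2 fold change over the square root of F. RPKM used the gene lengths of the table. Scripts were tested on simulated data. Exon overlaps came from GENCODE 29 and promoters from RefSeq. Python 3 drew the figures.

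All members are named. Values in every library are given for the 25 called members with the smallest adjusted p and the most abundant member of each role, and, outside this rule, for LIG1 and RPA2, chosen after their values were seen. Of other pathway lists, up to 3 called genes with the largest change are named. The members and lists were chosen with earlier results of these data known. Alternatives were no filter, scaling by library totals or by DESeq2 1.42.0 size factors, the DESeq2 Wald test, a fold threshold, an offset for neighbouring genes, a replicate block, a 3-group model and each library left out. The correlations with the member median are descriptive.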

Additional observations from a re-analysis of the deposited data

Results flagged for a closer look

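CCNE1 in hairpin 1 B, at 10.7 CPM, stood apart from the other 5 knockdown libraries, of which the nearest was at 15.8. All 41 members were examined over their 6 knockdown libraries in this way and 1 stood apart, where chance gives about 1 in 20.

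The hairpins gave different effects in 2 members, by the test of the difference itself. E2F1 was 0.77 higher with hairpin 3 on the log2 scale, beside a median of 0.35 for its neighbouring genes. POLE2 was 0.58 higher, beside a neighbour median of -0.15.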

How the results depend on the processing

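No called gene changed sign, but some uncalled values did. The median between the hairpins, 0.06, went to -0.07 without hairpin 1 B and -0.03 without hairpin 3 A, and that of B against C, -0.04, to 0.09 without hairpin 1 B and 0.02 without hairpin 1 C. With the offset for neighbouring genes, POLD1 went from -0.08 to 0.21 and GINS4 from -0.03 to 0.27 in the pooled comparison. With a fold change of at least 2 required, the members called numbered 0 in the pooled comparison, 2 with hairpin 1, 0 with hairpin 3, 0 between the hairpins and 0 between replicate A and the others. Of all tested genes, 14.7%, 16.3%, 15.3%, 3.93% and 1.04% were called at that threshold, in the same order. Without a filter, hairpin 3 had 10 and the difference between hairpins 5. Of all genes tested without the filter, 18.4% and 7.5% were called, smaller shares than those of the members. With the offset for neighbouring genes, hairpin 1 had 7 and the difference between hairpins 1, against 35.7% and 7.66% of all tested genes. With single libraries left out, there were 3 to 13 members in the pooled comparison, 8 to 19 with hairpin 1, 3 to 9 with hairpin 3, 1 to 4 between the hairpins, 15 to 31 for replicate A and 0 for B against C, and the medians were -0.25 to -0.09, -0.39 to -0.08, -0.27 to -0.09, -0.07 to 0.23, 0.26 to 0.35 and -0.12 to 0.09. Of all tested genes, the fits without 1 library called 22.9% to 32.3% in the pooled comparison and 29.8% to 38.4% with hairpin 1. They called 27.3% to 36% with hairpin 3, 6.39% to 12% between the hairpins and 10.3% to 23.8% for replicate A. Replicates B and C alone, added later, gave 19 with hairpin 1, 11 with hairpin 3 and 6 between the hairpins. Of all tested genes, 40.8%, 37.3% and 16.8% were called there. The letter comparison without the hairpin 3 group gave 20, against 8.66% of all tested genes. Apart from the replicate block, given next, other settings stayed within 1.5 times the count. The causes were not tested.

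The shared letters were checked as pairs. Deviations of same-letter libraries correlated across genes at 0.31 to 0.36 for A, 0.04 to 0.09 for B and 0.16 to 0.24 for C, so not every pair was over 0.1, and 7 of 9 libraries correlated best with their own letter. With the letter as a replicate block, 16 members were called in the pooled comparison, 22 with hairpin 1, 15 with hairpin 3 and 6 between the hairpins. Calls among all tested genes rose as well, to 36.1%, 48.8%, 45.6% and 23.1%, so that the share of members was above that of all genes in the pooled and hairpin 1 comparisons and below it in the others. MCM4 (-0.49, edgeR adjusted p 0.0227) and MCM6 (-0.33, adjusted p 0.00855) were among the members that gained a pooled call with the block.

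With 3 libraries per group, small differences are not resolved here. Members that share exon bases with a neighbour are uncertain on reads without strand: CCNE2, TYMS and, over shorter stretches, PRIM1, RFC5, RFC4, FEN1, MCM7, MCM2 and GINS2.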

Other observations

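Of 30 genes of G2 and mitosis, none was called with knockdown by edgeR (3 at an unadjusted p under 0.05), against 33% of all tested genes. Their median log2 fold change was 0.06, beside -0.16 for the replication genes. Hairpin 1 alone gave 3 calls (10%, against 37.8% of all tested genes). KIF20A, a mitotic kinesin, rose by 0.56 (adjusted p 0.00231) and CENPF, a kinetochore protein, by 0.48 (adjusted p 0.0451), while UBE2C, which works with the anaphase-promoting complex, stood at -0.36 (adjusted p 0.0271, neighbours at -0.28). Hairpin 3 gave 1 call (3.33%, against 34.7% of all tested genes), CDK1 at 0.38 (adjusted p 0.049). In replicate A, 20 of the 30 were called higher than in B and C, against 10.5% of all tested genes, with a median of 0.23.

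Between the hairpins, 10 of 88 other pathway genes differed (11.4%, about the share of 11.6% among all tested genes), 7 higher and 3 lower with hairpin 3. SKP2 was lower by -1.17 (edgeR adjusted p 1.35e-04), beside neighbouring genes at -0.79. CDC25A, a phosphatase that activates CDK2, was at 57.8, 45.5 and 41.8 CPM in control, 25.9, 14.9 and 21.1 with hairpin 1 and 48.1, 38.5 and 33.3 with hairpin 3, higher by 0.95 (adjusted p 0.00636) with neighbours at -0.04. RBL2, encoding the pocket protein p130, was at 30.8, 37.6 and 37.6 CPM in control, 19, 26.1 and 16.8 with hairpin 1 and 39.4, 40.6 and 41.2 with hairpin 3, higher by 0.97 (adjusted p 8.92e-04) with neighbours at -0.01. RRM2B, the p53-induced ribonucleotide reductase subunit, was higher by 0.86 (adjusted p 6.45e-04), with neighbours at 0.14.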
